A study of Rattus norvegicus with 9 samples.

Results

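The 33 genes described here make sterols and fatty acids or control and move sterols. They were chosen as a named list, and all 33 of its symbols were found among the 26854 genes in the authors' deposited tables, 1 of them (Scd) under its older symbol Scd1. Of these, 25 form the sterol class: 7 enzymes of the mevalonate steps, 11 enzymes from squalene formation to cholesterol, 5 genes of SREBP control and 2 genes of sterol transport. The other 8 form the fatty acid class. All 33 passed the authors' filter on low values and were tested.

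The libraries came from pineal glands of adult Sprague-Dawley rats, dissociated with papain and cultured as pinealocytes, the cells that make melatonin, in medium with fetal bovine serum. Of the 9 libraries, 3 were from cells given an siRNA against the homeobox gene Lhx4 (siLhx4), 3 from cells given an siRNA against the homeobox gene Bsx (siBsx) and 3 from cells given a non-targeting siRNA (siNT). All groups received 40 nM Stealth siRNA with Lipofectamine RNAiMAX and were harvested on day 3. Each target had a single siRNA sequence, and the labels do not say whether the 3 libraries of a group came from separate animals or cultures, so the p-values measure the spread between these libraries only.

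Cells build cholesterol from acetyl-CoA through mevalonate, isoprenoid units and squalene, and build fatty acids from the same acetyl-CoA through malonyl-CoA. Transcription of both sets of enzymes is driven by the sterol regulatory element-binding proteins, SREBP-1 and SREBP-2, which are encoded by Srebf1 and Srebf2. Scap escorts the SREBPs from the endoplasmic reticulum to the Golgi, where they are cut into active form, and Insig proteins hold Scap back when sterols are plentiful. In the pineal gland, acetyl-CoA is also the acetyl donor for N-acetylserotonin, the precursor of melatonin.

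SREBPs bind sterol regulatory elements and act together with NF-Y, which binds the letters CCAAT. RefSeq promoter windows (250 bases before to 50 bases after a start site, build GRCr8) were matched for 26 of the 33 genes and gave 27 windows, since Srebf1 had a pair. CCAAT was found on either strand in 17 of 22 windows of the sterol class (77.3%) and in 3 of 5 windows of the fatty acid class, against 37.5% of all 33469 windows in the RefSeq table. TCACNCCAC, a short form of the sterol regulatory element, was found on either strand in 0 of the 27 windows and in 1.12% of all windows. The E-box CACGTG was in the windows of Insig1, Sc5d and Scap, against 6.42% of all windows, and the homeodomain letters TAATTA were in none of the 27, against 5.36% of all windows. No searched motif contains another. These matches describe letters within the windows and not binding.

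The 250 bases before the start site are shown for 3 sterol genes with strong changes after siBsx and for 2 fatty acid genes. The latter are Acss2, which fell in both knockdowns, and Acly, which fell with siLhx4. Only genes with a CCAAT match in these bases were eligible, so its presence in each sequence follows from the choice. Scd, which also fell in both knockdowns, had 0 CCAAT matches in its window and is not shown. The sequences are printed 5′ to 3′ on the strand of the gene, with CCAAT, its complement ATTGG and CACGTG in capitals. Hmgcs1 has CCAAT on the opposite strand, printed as ATTGG, beginning 188 and 133 bases before the start. Insig1 has such a match 193 bases before the start and CACGTG 79 bases before it. Msmo1 has 3 CCAAT matches, 173, 109 and 68 bases before the start, and Acss2 and Acly have 1 each, 73 and 71 bases before it.

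Hmgcs1 (GRCr8 chr2:53382054-53382303, plus strand): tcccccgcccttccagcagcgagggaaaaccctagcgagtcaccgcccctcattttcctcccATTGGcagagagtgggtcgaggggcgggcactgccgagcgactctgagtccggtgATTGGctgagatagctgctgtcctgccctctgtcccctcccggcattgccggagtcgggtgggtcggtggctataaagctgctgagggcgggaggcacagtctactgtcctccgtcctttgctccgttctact

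Msmo1 (GRCr8 chr16:29746863-29747112, plus strand): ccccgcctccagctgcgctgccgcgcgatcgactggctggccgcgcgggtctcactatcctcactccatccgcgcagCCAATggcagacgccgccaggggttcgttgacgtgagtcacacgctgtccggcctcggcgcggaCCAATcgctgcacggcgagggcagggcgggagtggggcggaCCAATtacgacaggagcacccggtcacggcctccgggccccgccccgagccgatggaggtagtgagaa

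Insig1 (GRCr8 chr4:8057770-8058019, minus strand): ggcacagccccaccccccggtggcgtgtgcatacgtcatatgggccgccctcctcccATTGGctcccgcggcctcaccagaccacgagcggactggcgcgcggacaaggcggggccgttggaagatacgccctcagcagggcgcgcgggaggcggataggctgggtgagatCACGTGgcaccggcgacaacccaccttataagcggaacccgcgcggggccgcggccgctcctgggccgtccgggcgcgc

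Acss2 (GRCr8 chr3:164464453-164464702, plus strand): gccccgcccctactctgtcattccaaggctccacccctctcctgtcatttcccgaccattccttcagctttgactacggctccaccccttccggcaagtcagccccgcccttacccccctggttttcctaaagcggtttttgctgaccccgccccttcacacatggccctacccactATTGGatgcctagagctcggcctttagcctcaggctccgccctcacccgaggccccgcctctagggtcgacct

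Acly (GRCr8 chr10:85963632-85963881, minus strand): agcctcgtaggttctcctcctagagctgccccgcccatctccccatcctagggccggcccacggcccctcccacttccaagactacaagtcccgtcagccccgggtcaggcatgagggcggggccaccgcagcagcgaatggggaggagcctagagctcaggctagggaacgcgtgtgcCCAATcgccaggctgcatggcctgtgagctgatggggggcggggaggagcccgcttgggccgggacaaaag

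Normalized counts per library were not analysed here for any of the 33 genes. The level given for a group is its mean normalized count (reads divided by a size factor per library), computed from the mean and fold change of the authors' deposited table. Lhx4 itself, for which values per library were used, had 3420, 3634 and 3551 normalized counts in the 3 siLhx4 libraries, against 18963, 18331 and 19156 in the 3 siNT libraries. The groups did not overlap, and the level left in siLhx4 was 18.8% ± 0.574 of that in siNT (SD, n = 3; the smallest two-sided p of an exact permutation test with 3 against 3 libraries is 0.1). By the authors' deposited tables, Bsx fell by 79.3% with siBsx and by 44.8% with siLhx4. Both comparisons with siNT use the same 3 siNT libraries.

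With siLhx4, 15 of the 25 sterol genes fell and 0 rose at an adjusted p under 0.05 from DESeq2, as given by the authors' deposited table. Over all 14876 genes tested there, 9.59% were lower and 8.07% were higher. At an unadjusted p under 0.05, 18 sterol genes were lower and 1, Mvk, was higher. Of all 14876 genes tested, 4156 had an unadjusted p under 0.05, both directions together. The median log2 fold change of the sterol class was -0.19, beside 0.003 over all genes tested. The called log2 fold changes ran from -0.84 to -0.16. Each SE given below for siLhx4 over siNT was computed from the authors' fold change and p, since they give an SE for siBsx only.

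Among the mevalonate enzymes, 3 of 7 fell with siLhx4. Phosphomevalonate kinase (Pmvk) averaged 1254 normalized counts in siLhx4 and 2242 in siNT. It had the largest fall of the 33 genes in this comparison, 0.84 ± 0.079 on the log2 scale (SE; authors' deposited table, DESeq2 adjusted p = 5.81e-24). Isopentenyl diphosphate isomerase (Idi1), which interconverts the isoprenoid units, averaged 2454 in siLhx4 and 3573 in siNT. Its level fell by 31.3% by the authors' deposited table (DESeq2 adjusted p = 3.2e-09). Acat2, which joins acetyl-CoA units at the start of the pathway, fell by 19.2% there (adjusted p = 0.00399 by DESeq2). The other 4 did not pass. The synthase Hmgcs1, which makes HMG-CoA, had 5845 normalized counts in siLhx4 and 6216 in siNT, with a log2 fold change of -0.09 ± 0.068 (SE; DESeq2 adjusted p = 0.439, authors' deposited table). Mevalonate kinase (Mvk) was at 840.4 in siLhx4 and 689.5 in siNT (log2 fold change 0.29 ± 0.12, SE; DESeq2 adjusted p = 0.0713, authors' deposited table).

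Of the 11 enzymes from squalene formation to cholesterol, 8 fell with siLhx4, and the log2 fold changes of all 11 lay between -0.41 and -0.06 in the authors' deposited table. Lanosterol synthase (Lss), which closes the sterol rings, averaged 1990 normalized counts in siLhx4 and 2652 in siNT and fell by 24.9% (DESeq2 adjusted p = 0.000105, authors' deposited table). The sterol reductase Dhcr7, which acts in the last step to cholesterol, fell by 22.1%, and Hsd17b7, a ketosteroid reductase of the demethylation steps, fell by 22.2% in the same authors' deposited table. Squalene synthase (Fdft1), lanosterol demethylase (Cyp51), the sterol reductase Tm7sf2, the methylsterol oxidase Msmo1 and the desaturase Sc5d also fell, with DESeq2 adjusted p-values from 0.0027 to 0.0258 in the authors' deposited table. Squalene epoxidase (Sqle), a rate-limiting enzyme of the pathway, did not pass, at 2224 normalized counts in siLhx4 and 2457 in siNT (DESeq2 adjusted p = 0.125, authors' deposited table). Nsdhl and the isomerase Ebp did not pass either.

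Of the SREBP control genes, Insig1, Srebf1 and Srebf2 fell with siLhx4. Insig1, which retains Scap and is itself a target of SREBPs, averaged 6888 normalized counts in siLhx4 and 10565 in siNT. Its fall of 0.62 ± 0.053 on the log2 scale was the second largest of the 33 genes (SE; authors' deposited table, DESeq2 adjusted p = 1.8e-28). Srebf1 fell by 14.3% and Srebf2 fell by 11.5% (authors' deposited table; DESeq2 adjusted p of 0.000744 and 0.0403). Insig2, the less abundant paralog by count, had 200.4 normalized counts in siLhx4 and 167.4 in siNT, and its error was wide (log2 fold change 0.26 ± 0.22, SE; DESeq2 adjusted p = 0.482, authors' deposited table). Scap did not pass (DESeq2 adjusted p = 0.653, authors' deposited table). Of the transport genes, Npc1, which exports cholesterol from lysosomes, fell by 10.8%, while the sterol carrier Stard4 did not pass (DESeq2 adjusted p of 0.0293 and 0.784, authors' deposited table). At a stricter adjusted p of 0.01, 8 sterol genes were lower, but the share of all genes lower at that threshold is not given here.

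In the fatty acid class, 3 of 8 genes fell with siLhx4 and 0 rose, at a median log2 fold change of -0.21. At an unadjusted p under 0.05, 5 were lower and 1 was higher, beside 4156 of all 14876 genes tested in both directions together. ATP citrate lyase (Acly), which makes cytosolic acetyl-CoA from citrate, averaged 20883 normalized counts in siLhx4 and 29509 in siNT. It fell by 0.50 ± 0.039 on the log2 scale and had the smallest p of the 33 genes (SE; authors' deposited table, DESeq2 adjusted p = 7.69e-36). Acss2, which makes acetyl-CoA from acetate, averaged 1796 in siLhx4 and 2189 in siNT and fell by 18.0% (DESeq2 adjusted p = 0.00182, authors' deposited table). The stearoyl-CoA desaturase Scd averaged 2589 in siLhx4 and 3352 in siNT and fell by 22.8% (listed as Scd1 by the authors' deposited table; DESeq2 adjusted p = 0.00032). The committed enzymes of the pathway did not pass: acetyl-CoA carboxylase (Acaca) had a log2 fold change of 0.09 ± 0.082 and fatty acid synthase (Fasn) of -0.13 ± 0.051 (SE; DESeq2 adjusted p of 0.556 and 0.0631, authors' deposited table). The elongase Elovl6 and the desaturases Fads1 and Fads2 had low counts and wide errors. Their log2 fold changes were -0.43 ± 0.19, 0.35 ± 0.16 and -0.07 ± 0.34 (authors' deposited table, with the SE computed from fold change and p).

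**Figure D1:**
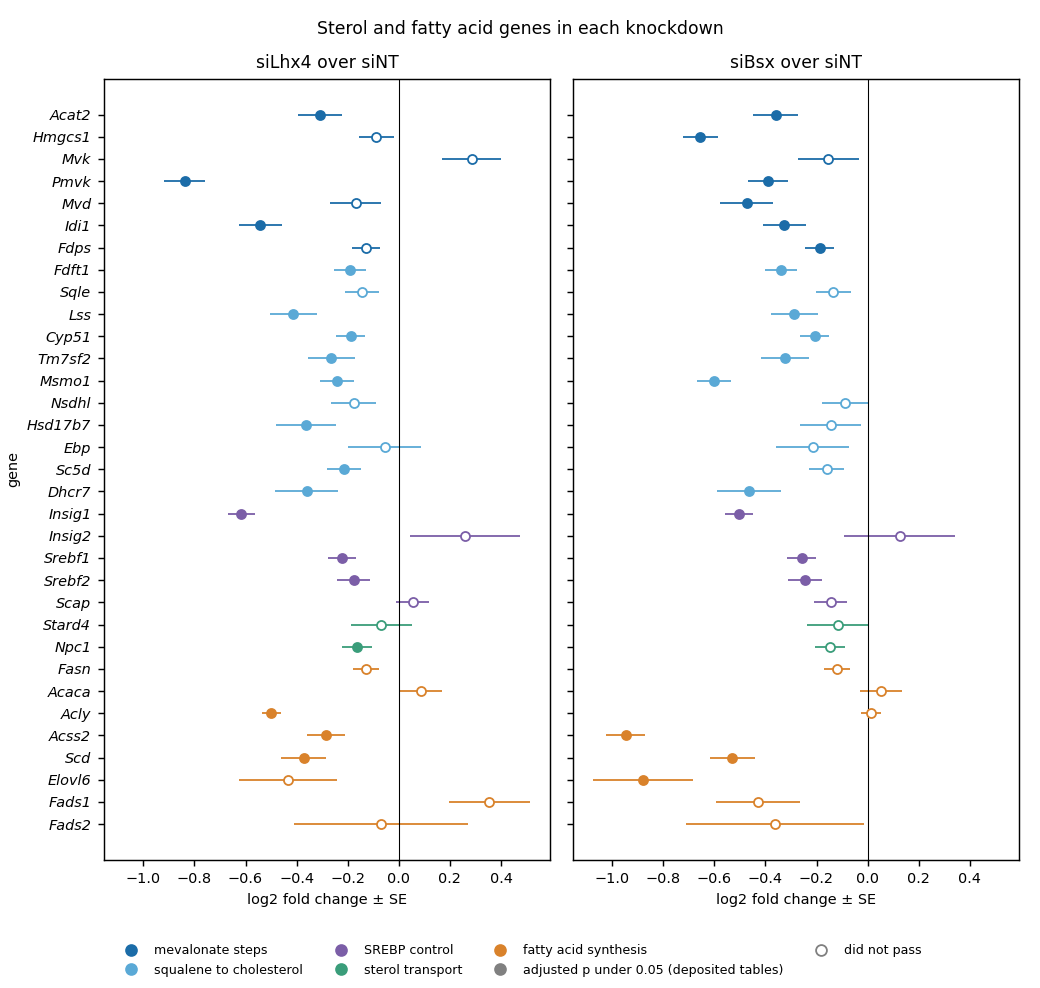
The log2 fold change over siNT (horizontal axis) is plotted for each of the 33 genes, siLhx4 on the left and siBsx on the right, with bars for the SE and colours for the role; filled points passed a DESeq2 adjusted p of 0.05. Filled points all lie left of 0, with Pmvk (-0.84) and Insig1 (-0.62) farthest left for siLhx4, and Acss2 (-0.95) and Elovl6 (-0.88) for siBsx.

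With siBsx, 15 of the 25 sterol genes fell and 0 rose by the same threshold in the authors' deposited siBsx table, where 9.61% of the 14876 genes were lower and 7.59% higher. At an unadjusted p under 0.05, 19 were lower and 0 higher, beside 4010 of all 14876 genes tested in both directions together. The class median was -0.24 on the log2 scale, beside 0.0002 over all genes tested.

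Of the 7 mevalonate enzymes, 6 fell with siBsx. Hmgcs1 averaged 3947 normalized counts in siBsx and 6214 in siNT and fell by 36.5%, the largest fall of the sterol class in this comparison (DESeq2 adjusted p = 2.07e-19, authors' deposited table). The decarboxylase Mvd, which yields isopentenyl diphosphate, averaged 746.1 in siBsx and 1036 in siNT and fell by 28.0% (DESeq2 adjusted p = 6.21e-05, authors' deposited table). Pmvk fell by 23.7%, Acat2 fell by 22.1% and Idi1 fell by 20.2%, and Fdps, which makes farnesyl diphosphate, fell by 12.2% (authors' deposited table). Mvk alone did not pass, at 618.4 normalized counts in siBsx and 688.0 in siNT (DESeq2 adjusted p = 0.447, authors' deposited table).

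Of the 11 later enzymes, 6 fell with siBsx and all 11 had log2 fold changes below 0, from -0.60 to -0.09, in the authors' deposited table. Msmo1, which removes methyl groups from the sterol ring, averaged 1599 normalized counts in siBsx and 2425 in siNT. It fell by 0.60 ± 0.068 on the log2 scale (SE; DESeq2 adjusted p = 4.99e-17, authors' deposited table). Dhcr7 fell by 27.6%, Fdft1 fell by 21.0%, Tm7sf2 fell by 20.1%, Lss fell by 18.1% and Cyp51 fell by 13.3% in the authors' deposited table. Sqle, Nsdhl, Hsd17b7, Ebp and Sc5d did not pass, with DESeq2 adjusted p-values from 0.088 to 0.606 in the authors' deposited table.

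Insig1 averaged 7448 normalized counts in siBsx and 10560 in siNT and fell by 29.5% (DESeq2 adjusted p = 5.56e-19, authors' deposited table). Srebf1 fell by 16.4% and Srebf2 fell by 15.6% with siBsx (DESeq2 adjusted p of 6.54e-05 and 0.00195, authors' deposited table). Insig2 (0.13 ± 0.22), Scap (-0.14 ± 0.064), Npc1 (-0.15 ± 0.058) and Stard4 (-0.11 ± 0.12) did not pass (log2 fold change and SE, authors' deposited table).

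In the fatty acid class, 3 of 8 genes fell with siBsx and 0 rose, at a median log2 fold change of -0.40. At an unadjusted p under 0.05, 5 were lower and 0 higher, beside 4010 of all 14876 genes tested in both directions together. Acss2 averaged 1134 normalized counts in siBsx and 2187 in siNT, and it fell by 48.1%, more than any other of the 33 genes in either comparison with siNT (DESeq2 adjusted p = 1.51e-31, authors' deposited table). Elovl6, which lengthens palmitate, averaged 234.8 in siBsx and 431.7 in siNT and fell by 45.6% (DESeq2 adjusted p = 0.000113, authors' deposited table). Scd averaged 2320 in siBsx and 3350 in siNT and fell by 30.7% (listed as Scd1 by the authors' deposited table; DESeq2 adjusted p = 5.79e-08). Acly stood at 29802 in siBsx and 29507 in siNT, a log2 fold change of 0.01 ± 0.038 with a 95% interval from -0.06 to 0.09 (SE; DESeq2 adjusted p = 0.871, authors' deposited table). Fads1, a desaturase of polyunsaturated fatty acids, was at 263.5 in siBsx and 355.1 in siNT and missed the threshold (DESeq2 adjusted p = 0.0513, authors' deposited table). With the adjustment limited to genes averaging 100 or more normalized counts, or with fold changes centred on the median gene, Fads1 passed (adjusted p of 0.0438 and 0.0489). Fasn, Acaca and Fads2 did not pass.

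In both comparisons 60% of the sterol genes and 37.5% of the fatty acid genes were lower. With siLhx4 the log2 fold changes ran from -0.84 to 0.29 for the sterol genes and from -0.50 to 0.35 for the fatty acid genes, and with siBsx from -0.65 to 0.13 and from -0.95 to 0.05. For comparison, the middle 80% of all genes tested lay between -0.36 and 0.30 with siBsx and between -0.32 and 0.34 with siLhx4. With 8 genes in the fatty acid class, the difference between the classes was not tested. These calls rest on DESeq2's normal reference and lean on dispersions shared between genes. Against a t distribution with 6 degrees of freedom, 4 of the 33 genes still passed with siLhx4 (Pmvk, Idi1, Insig1 and Acly) and 7 with siBsx (Hmgcs1, Pmvk, Fdft1, Msmo1, Insig1, Acss2 and Scd). At 4 degrees of freedom 0 of the 33 passed in either comparison, and of all genes tested 1 passed with siLhx4 and 18 in each direction with siBsx.

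**Figure D2:**
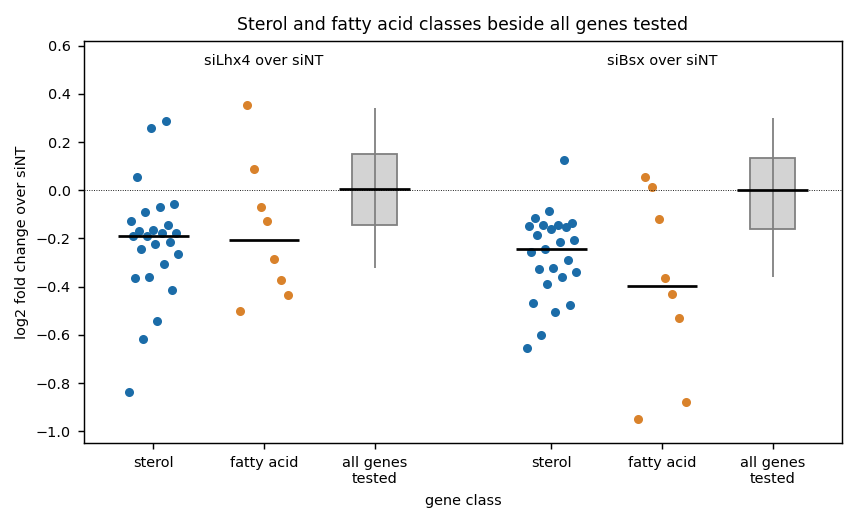
Log2 fold changes over siNT (vertical axis) are shown for the 25 sterol genes, the 8 fatty acid genes and all 14876 genes tested, for siLhx4 and siBsx. Points are genes, black lines medians, grey boxes the middle 50% and grey lines the middle 80% of all genes tested; the class medians lie between -0.40 and -0.19, below the 0 line.

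The siBsx and siLhx4 groups were then compared with each other, which does not use the siNT libraries in the difference. A Wald test was rebuilt for this from the values of both tables, and 7 of the 33 genes were lower and 3 higher in siBsx than in siLhx4 at an adjusted p under 0.05. These are 21.2% lower and 9.09% higher, beside 11.9% lower and 10.8% higher over all 14876 genes tested. The sterol class had 5 lower and 2 higher genes and the fatty acid class 2 lower and 1 higher.

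Acly was 42.7% higher in siBsx than in siLhx4, with 29802 against 20883 normalized counts (log2 difference 0.51 ± 0.039, SE; rebuilt Wald test, adjusted p = 3.73e-38). Acss2 was lower in siBsx, with 1134 normalized counts in siBsx and 1796 in siLhx4 (log2 difference -0.66 ± 0.079, SE; rebuilt Wald test, adjusted p = 1.5e-15). Of the enzymes that supply cytosolic acetyl-CoA, the one that uses citrate was thus higher in siBsx and the one that uses acetate was lower. Fads1 was lower in siBsx, with 263.5 against 453.4 normalized counts in siLhx4 (log2 difference -0.78 ± 0.16, SE; rebuilt Wald test, adjusted p = 2.14e-05).

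In the mevalonate steps, Hmgcs1 had 3947 normalized counts in siBsx and 5845 in siLhx4 (log2 difference -0.57 ± 0.069, SE; rebuilt Wald test, adjusted p = 9.36e-15). Mvk (log2 difference -0.44 ± 0.12) and Mvd (-0.31 ± 0.10) were also lower in siBsx (SE; rebuilt Wald test, adjusted p of 0.00146 and 0.0168). Pmvk, in contrast, was 36.4% higher in siBsx, with 1710 against 1254 normalized counts in siLhx4 (rebuilt Wald test, adjusted p = 4.74e-07). Idi1 was 16.1% higher in siBsx (rebuilt Wald test, adjusted p = 0.0455), a call lost when the log2 differences were centred on the median gene (adjusted p = 0.0513). Msmo1 (log2 difference -0.36 ± 0.068) and Scap (-0.20 ± 0.064) were lower in siBsx (SE; rebuilt Wald test, adjusted p of 1.91e-06 and 0.0116).

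The other 23 genes did not pass between the knockdowns. Insig1 had a log2 difference of 0.11 with a 95% interval from 0.01 to 0.22, Srebf1 of -0.04 with an interval from -0.15 to 0.07, and Srebf2 of -0.07 with an interval from -0.20 to 0.06 (rebuilt Wald test, adjusted p of 0.124, 0.738 and 0.527). Fasn had an interval from -0.09 to 0.11 and Cyp51 from -0.13 to 0.09. For Elovl6 and Fads2 the intervals were wide, from -0.83 to -0.06 and from -0.98 to 0.39. Against a t distribution with 4 degrees of freedom Acly alone of the 33 genes passed, against one with 6 degrees of freedom 6 did, and at an adjusted p of 0.01 7 did.

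**Figure D3:**
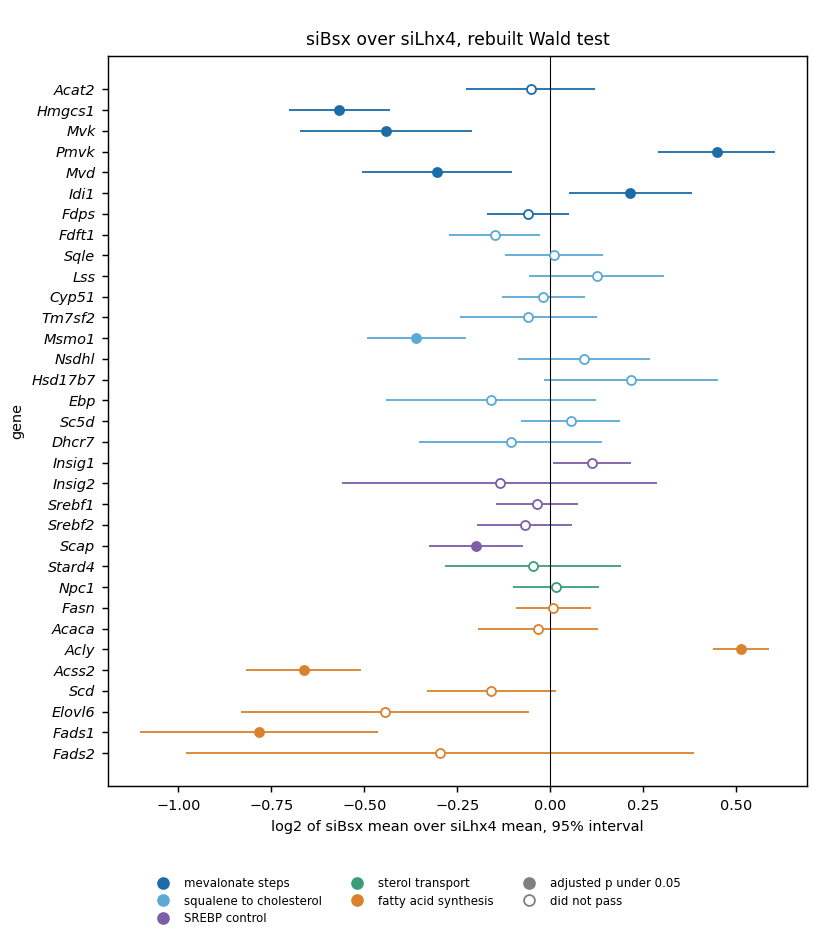
The log2 ratio of the siBsx mean to the siLhx4 mean (horizontal axis) is plotted for each of the 33 genes with its 95% interval; colours give the role and filled points passed an adjusted p of 0.05 in the rebuilt Wald test. Acly (0.51), Pmvk (0.45) and Idi1 (0.22) are filled to the right of 0, and 7 genes are filled to the left, led by Fads1 (-0.78) and Acss2 (-0.66).

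Other genes of the pathway were taken from 5 lists. For each list, the shares to compare are those over all 14876 genes tested. These were 9.59% lower and 8.07% higher with siLhx4, and 9.61% lower and 7.59% higher with siBsx. Of 11 genes that process or degrade proteins of the SREBP system, 2 fell and 2 rose with siLhx4. With siBsx, 1 fell and 0 rose (2 higher at an unadjusted p under 0.05), and this 9.09% lower was near the share of all genes. Erlin2 and Erlin1 encode endoplasmic reticulum proteins that bind cholesterol and take part in degradation of membrane proteins. Erlin2 fell by 0.71 (log2) with siLhx4 and Erlin1 fell by 0.32 (log2) with siBsx (DESeq2 adjusted p of 2.06e-15 and 0.00887, authors' deposited tables). The coat protein Sec24a rose by 19.3% and the ubiquitin ligase Rnf139 rose by 20.5% with siLhx4 (authors' deposited table).

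Of 18 genes listed under sterol traffic and export, 3 fell and 6 rose with siLhx4, while 5 fell and 3 rose with siBsx. The list also holds regulators of transcription, and these counts include 2 of them. Nr1h3 rose with siLhx4, and the receptor coactivator Ncoa1 fell by 12.8% with siLhx4 and rose by 15.7% with siBsx (authors' deposited tables). Mylip, a ubiquitin ligase that degrades lipoprotein receptors, rose by 56.8% and the oxysterol receptor Nr1h3 rose by 38.2% with siLhx4 (DESeq2 adjusted p of 3.75e-16 and 0.0042, authors' deposited table). With siBsx, the HDL receptor Scarb1 averaged 3691 normalized counts in siBsx and 6741 in siNT and fell by 45.3% (DESeq2 adjusted p = 6.07e-53, authors' deposited table). With siLhx4, Scarb1 fell by 16.9% (authors' deposited table; adjusted p = 1.89e-05 from DESeq2). The sterol exporter Abcg1 fell by 35.1% with siBsx and rose by 26.1% with siLhx4 (DESeq2 adjusted p of 3.8e-11 and 0.000889, authors' deposited tables). The lysosomal carrier Npc2 averaged 1091 normalized counts in siBsx and 1604 in siNT and also fell (authors' deposited table).

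Of 12 genes of sterol oxidation and its electron donors, 0 fell (1 lower at an unadjusted p under 0.05) and 3 rose with siLhx4 by DESeq2, and 2 fell and 2 rose with siBsx. The sterol hydroxylase Cyp27a1 averaged 606.1 normalized counts in siLhx4 and 324.2 in siNT and rose by 86.9% (DESeq2 adjusted p = 4.92e-09, authors' deposited table). Cyp7b1 and Cyb5b rose by 76.1% and 21.8% with siLhx4, and Ch25h, at a mean of 87.2 in siBsx and 39.4 in siNT, rose by 121% with siBsx (authors' deposited tables). Cyb5b rose by 18.0% and the reductase Cyb5r3 fell by 17.1% with siBsx (authors' deposited table). Of 10 genes of other isoprenoid branches, 2 fell with siLhx4, among them Dhdds (-19.3%), and 1, Ggps1 (-15.6%), fell with siBsx in the authors' deposited tables. These were 20% and 10% lower, beside 9.59% and 9.61% of all genes tested, so the siBsx share was near that of all genes.

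Of 23 tested genes of fatty acid supply, activation and elongation, 7 fell and 1 rose with siLhx4, while 5 fell and 2 rose with siBsx. Elovl2, which elongates polyunsaturated fatty acids, averaged 2407 normalized counts in siLhx4 and 3278 in siNT, and 4694 in siBsx and 3278 in siNT. It fell by 26.6% with siLhx4 and rose by 43.2% with siBsx (DESeq2 adjusted p of 5.22e-09 and 2.21e-12, authors' deposited tables). The acyl-CoA synthetase Acsl1 rose by 66.2% and Acsl4 fell by 27.1% with siBsx, and with siLhx4 Acsl1 rose by 23.7% and Acsl4 fell by 18.8% (authors' deposited tables). With siLhx4, Mid1ip1, an activator of acetyl-CoA carboxylase, fell by 21.2% and the desaturase Scd2 fell by 19.4%, and Scd2 fell by 18.6% with siBsx (authors' deposited tables). Some members overlap other annotated genes (Idi1 with Wdr37, Srebf1 with Rai1, Srebf2 with Mir33, Npc1 with Rmc1, RefSeq build GRCr8), and without a stated strand setting their reads cannot be told apart. Wdr37 (log2 fold change 0.05 with siLhx4 and -0.06 with siBsx) and Rai1 (-0.04 and 0.06) did not pass in the authors' deposited tables. The values of Scd and Scd2, which are similar in sequence, are uncertain, since the treatment of reads matching both is not given in the sources used here.

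**Figure D4:**
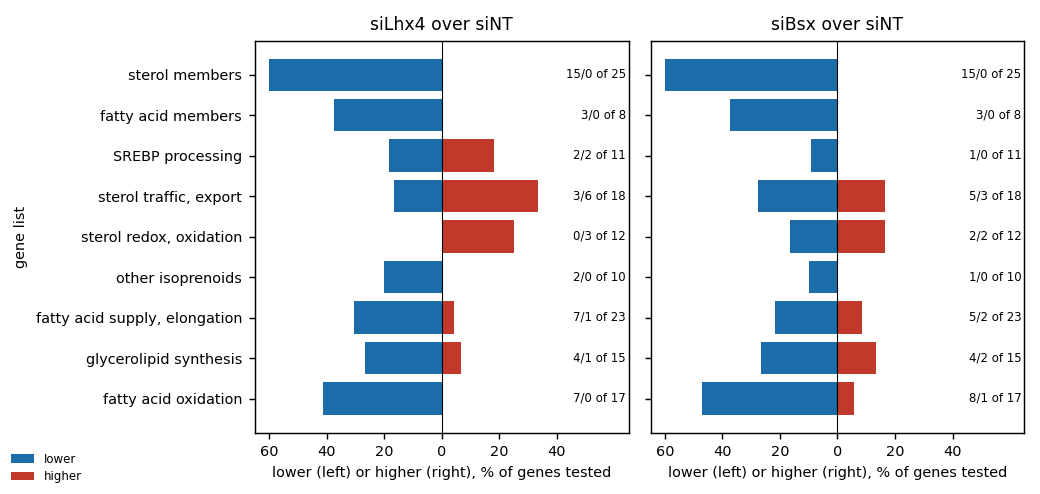
The share of genes that were lower (left, blue) or higher (right, red) at a DESeq2 adjusted p under 0.05, in % of the genes tested, is shown for the sterol and fatty acid genes and 7 related lists, for siLhx4 and siBsx; counts lower and higher stand at the right. The sterol genes had 15 of 25 lower and 0 higher in each comparison, while genes of sterol traffic and export had both directions.

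The libraries also held RNA with markers of other cells, and in bulk RNA fewer cells of a type and less RNA per cell cannot be told apart. The summed level of 14 pinealocyte markers was 454671 normalized counts in siLhx4 and 597379 in siNT, with 9 markers lower and 0 higher (by DESeq2; 1 at an unadjusted p under 0.05), and 562494 in siBsx and 597364 in siNT, with 5 lower and 4 higher. Tph1, the enzyme that starts serotonin synthesis, made up most of these sums, and the list holds both siRNA targets. Without Lhx4, Bsx and Tph1, the other 11 markers summed to 96455 in siLhx4 and 111246 in siNT, with 6 lower and 0 higher. They summed to 124123 in siBsx and 111237 in siNT, with 3 lower and 3 higher. No other marker list summed to more than 18746 in any group. The summed level of 12 astrocyte markers was 18746 in siLhx4 and 15002 in siNT, with 4 of 9 tested higher, and 12689 in siBsx and 15003 in siNT, with 4 lower. That of 12 fibroblast markers was 5451 in siLhx4 and 3944 in siNT (3 of 11 tested higher), and 3333 in siBsx and 3947 in siNT (2 lower). That of 8 mural markers was 10022 in siLhx4 and 7176 in siNT (1 of 6 higher, Myh11), and 3669 in siBsx and 7176 in siNT (2 lower). Most of the mural sum was Myh11, at 8932 in siLhx4 and 6201 in siNT, and 2953 in siBsx and 6198 in siNT. Endothelial, glial sheath and microglial markers summed to 2201, 1803 and 528.4 in siLhx4, against 1683, 1444 and 521.8 in siNT. In siBsx those sums were 1556, 1565 and 599.6, against 1686, 1442 and 521.3 in siNT. Gfap, Aqp4, Aldh1l1, Lum, Rgs5, Acta2, Emcn, Mag and 6 of the 11 microglial markers had means under 20, and Lum was at 0 in siBsx. The part of these cells in the changes of sterol and fatty acid genes was not tested.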

How the data were processed

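Adult rat pinealocyte cultures were compared after siLhx4, siBsx or siNT, with 3 stranded, rRNA-depleted libraries each, made from 3.4 ng of total RNA. The authors used build rn6, Subread 1.5.2 with featureCounts, STAR 2.5.4a, DESeq2 1.16.1 and bcl2fastq 2.20.0.422, as listed in the submitters' processing notes without order; annotation, strand setting and multi-gene reads are not given in the sources used here. Per the file legends, the deposited signal is the authors' mean normalized count of 6 libraries. The deposited log2 values are the authors' fold changes over siNT, with SE for siBsx only. The authors' deposited score is the Wald statistic, the ratio and percent columns restate the fold change, and the p-values are unadjusted or Benjamini-Hochberg adjusted by the authors over 14876 genes. For 14 genes the authors' file gives the normalized count of each siLhx4 and siNT library, of which Lhx4 was used. Library totals were not analysed here.

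Group means were computed from the mean and fold change, with ratios of 0.997 to 1.00 to the means of the 14 genes, and the siLhx4 SE from the fold change and p. For siBsx over siLhx4, a Wald test used these means and the dispersion implied by the siBsx SE, with size factors taken as equal and Benjamini-Hochberg adjustment over all genes tested. For siLhx4, the SE predicted in this way was a median 1.01 times the SE from p. The test was tested on simulated data.

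Members, lists and tests were chosen with earlier results of these data known. Named were all members and up to 3 called genes of each related list with the largest change, except that some items are not reported here. The printed promoters and the set of protein-coding promoters were chosen after the values were seen, since the planned motif matched no member; so were the marker sums without Lhx4, Bsx and Tph1. Alternatives were another threshold, other filters, t references, centring and another dispersion. Python 3.11.15, SciPy 1.17.1 and pandas 2.3.3 were used.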

Additional observations from a re-analysis of the deposited data

How the results depend on the processing

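No call changed direction under any alternative run, but none of these runs could have changed one. They altered the p-values or their adjustment and left the fold changes as they were, apart from a small shift by centring. No paired analysis or leaving out of libraries was possible for the 33 genes because their values per library were not analysed here. At an adjusted p of 0.01, 8 sterol genes were lower with siLhx4 and, in siBsx over siLhx4, 3 were lower and 1 higher. Of all genes, 769 and 751 were higher with siLhx4 and siBsx at that threshold. The matching counts of all genes lower, and those for siBsx over siLhx4, are not given here. The sterol counts at 0.01 therefore stand without a share of all genes beside them. Against a t distribution with 6 degrees of freedom, 3 sterol genes and 1 fatty acid gene were lower with siLhx4, 5 sterol genes with siBsx, and 2 sterol genes lower and 1 higher in siBsx over siLhx4. Over all genes these counts were 451 lower and 248 higher, 489 and 306, and 685 and 620. With 4 degrees of freedom, 0 sterol genes and 0 fatty acid genes were lower with siLhx4 or siBsx, and 0 sterol genes were lower or higher and 0 fatty acid genes lower in siBsx over siLhx4; over all genes 1 was lower and 0 higher with siLhx4, 18 lower and 18 higher with siBsx, and 135 and 156 in siBsx over siLhx4. These t references ignore the information that DESeq2 shares between genes. Centring left 1 sterol gene higher in siBsx over siLhx4. Without the filter on low values, Srebf2 and Npc1 no longer passed with siLhx4 (adjusted p of 0.0717 and 0.0524). Of protein-coding promoters, 38.0% held CCAAT, 1.03% TCACNCCAC, 7.01% CACGTG and 4.74% TAATTA. The Lhx4 level ranged from 18.5% to 19.1% of siNT without 1 library at a time, and was 18.8% with the replicate number as a block.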

Other observations

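Of 17 genes of fatty acid oxidation, 7 were lower and 0 higher with siLhx4 by DESeq2 (1 higher at an unadjusted p under 0.05). With siBsx, 8 were lower and 1 higher. The median log2 fold changes were -0.13 with siLhx4 and -0.22 with siBsx. For this list and the next, the shares over all genes tested were 9.59% lower and 8.07% higher with siLhx4. With siBsx they were 9.61% lower and 7.59% higher. Cpt1a, which commits fatty acids to entry into mitochondria, averaged 1943 normalized counts in siLhx4 and 3234 in siNT and fell by 39.9% (DESeq2 adjusted p = 8.5e-18, authors' deposited table). Acaa2 fell by 33.1% and Decr1 fell by 27.6% with siLhx4. With siBsx, Cpt1a fell by 22.7%, Acaa2 fell by 22.9% and Decr1 fell by 14.1% (authors' deposited tables). With siBsx, Cpt2, the inner-membrane partner of Cpt1a, averaged 906.3 normalized counts in siBsx and 1678 in siNT and fell by 46.0%, and the acylcarnitine carrier Slc25a20 fell by 28.4% (DESeq2 adjusted p of 1.22e-18 and 8.18e-06, authors' deposited table). Slc25a20 also fell by 18.7% with siLhx4 (authors' deposited table). The long-chain dehydrogenase Acadl rose by 53.6% with siBsx (authors' deposited table).

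Of 15 genes of glycerolipid synthesis, 4 fell and 1 rose with siLhx4, and 4 fell and 2 rose with siBsx. Dgat2, which makes triglycerides, fell by 18.6% with siLhx4 and fell by 25.8% with siBsx (authors' deposited tables). Lpin2 rose by 40.1% and Lpin1 fell by 19.7% with siBsx, and Pcyt2 fell by 20.3% with siLhx4 (authors' deposited tables). The acyltransferase Gpat3, listed as Agpat9, rose by 41.0% with siLhx4 (authors' deposited table).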
